A study of Homo sapiens with 40 samples.

Results

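The 8 genes described here encode laminin chains and proteins of the hemidesmosome plaque or its membrane partners: *LAMA3*, *LAMB3*, *LAMA5*, *LAMB1*, *LAMC1*, *DST*, *PLEC* and *CD151*. They were taken by symbol from the 60708 genes in each count table, and were chosen by their counts in these same libraries, with the differences between the groups known, so their levels are given as a description. The p-values below come from tests over all genes and measure each difference against the spread between libraries. They are not independent evidence for the choice.

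Laminins are heterotrimers of an α, a β and a γ chain that assemble into the basement membrane and bind integrins on the cell above it. LAMA3 and LAMB3 are chains of the epithelial laminin that anchors hemidesmosomes, whereas LAMA5, LAMB1 and LAMC1 are chains of laminins found in most basement membranes, the mammary one included. On the inner side of the hemidesmosome, plectin (PLEC) and the epithelial form of dystonin (DST) tie the ITGA6 and ITGB4 integrin to keratin filaments, and the tetraspanin CD151 associates with laminin-binding integrins.

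RNA was sequenced in 24 libraries, with 3 biological replicates in each of 8 groups. MI-spheres were 3D cultures of MCF-10A, an immortalised mammary epithelial cell line, and MII-spheres were the same cells transformed with HRAS. Both were grown on ultra-low attachment plates and either left unstimulated (Ctrl) or given TGFβ1 at 2.5 ng/ml for 16 h (TGFb in the labels). The other groups were monolayers of the triple-negative breast cancer line MDA-MB-231. The group labelled WT was untreated, the group labelled SLUG KO had been edited with CRISPR/Cas9 in *SNAI2*, the gene for SLUG, and expanded from single cells, and the remaining groups carried a scrambled control siRNA (Csi) or siRNAs against SMAD2, SMAD3 and SMAD4 (siSMAD2/3/4). How many clones the 3 libraries labelled SLUG KO stand for is not given in the labels. Every MDA-MB-231 group was a monolayer and every MCF-10A group a sphere, so the line and the form of culture cannot be told apart, and the siRNA groups were sequenced in another batch.

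Library totals ranged from 14124688 to 38406952 counts, and the 8 transcripts were well covered, with between 891 counts (*LAMB1*, MII Ctrl replicate 1) and 191299 counts (*PLEC*, WT replicate 2). Levels are given as CPM, each library's counts scaled to a common total, after TMM scaling over the 24 libraries. WT replicate 2 stood apart: its log2 CPM correlated with WT replicates 1 and 3 at 0.957 and 0.952, against 0.989 between those replicates, and mitochondrial genes took 2.40% of its counts against 0.812% and 0.656%. Results that rest on WT are therefore given with and without it. A list of 6 epithelial markers, the basal genes *KRT5*, *KRT14*, *KRT6A* and *TP63* and the general epithelial genes *CDH1* and *EPCAM*, summed to between 765 and 1760.3 CPM in the MI- and MII-spheres and to between 12.8 and 41.8 CPM in the MDA-MB-231 groups, where mean *KRT5* was at most 0.194 CPM and 0 in WT. *CDH1* and *EPCAM* made up most of the sum in MII Ctrl, at means of 565 and 186.5 CPM against 18.9 CPM for *KRT5*. Summed mesenchymal markers lay between 56.3 and 294 CPM in the spheres and between 876 and 4117 CPM in MDA-MB-231, luminal markers between 1176 and 2846 CPM over all groups, and stromal, endothelial and leukocyte markers at most at 124, 117 and 194 CPM. The last 2 maxima were in MII Ctrl and rested mostly on 1 gene each. Mean *PECAM1* was 104.6 CPM there, against 10.7 for *CDH5* and 0.185 for *VWF*. Mean *CD14* was 192 CPM, against 0.085 for *PTPRC* and 0 for *CD3E*. *SNAI2* itself was higher in the libraries labelled SLUG KO (61.8 ± 3.60 CPM, SD, n = 3) than in WT (28.2 ± 6.62), so a count over the whole gene goes against that label and does not read the edit. The authors state that knockout clones were checked by ddPCR and immunoblotting. *HRAS* was 5.45-fold higher in MII Ctrl than in MI Ctrl by the fitted value, and *SMAD2*, *SMAD3* and *SMAD4* were 3.79-fold, 1.62-fold and 3.30-fold lower in siSMAD2/3/4 than in Csi.

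For 6 of the 8 genes the RefSeq promoter table (GRCh38.p14) held a start site, and 4 windows of 250 bases before a start are printed because *LAMA3*, *LAMA5* and *LAMB1* had the largest responses to TGFβ described below and *LAMB3* is the partner of *LAMA3*. Capitals mark matches, on either strand, to the SMAD box CAGAC, the AP-1 motif TGANTCA and the E-box CACCTG that SNAIL-family proteins such as SLUG bind. The *LAMA3* window (chr18:23872770-23873019, plus strand) precedes a start inside the gene, the *LAMB3* window (chr1:209651375-209651624, minus strand) precedes the third listed start, and the *LAMA5* (chr20:62367313-62367562, minus strand) and *LAMB1* (chr7:108003162-108003411, minus strand) windows precede the only listed start.
LAMA3: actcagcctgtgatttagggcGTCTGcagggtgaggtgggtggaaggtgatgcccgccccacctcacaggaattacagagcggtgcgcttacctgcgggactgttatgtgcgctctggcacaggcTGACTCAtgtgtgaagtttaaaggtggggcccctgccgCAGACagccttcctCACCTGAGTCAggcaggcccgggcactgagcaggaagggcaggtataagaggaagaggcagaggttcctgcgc
LAMB3: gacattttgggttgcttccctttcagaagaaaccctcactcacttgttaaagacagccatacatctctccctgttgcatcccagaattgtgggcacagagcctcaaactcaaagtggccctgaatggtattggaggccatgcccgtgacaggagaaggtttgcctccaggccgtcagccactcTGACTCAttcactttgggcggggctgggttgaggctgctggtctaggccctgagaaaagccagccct
LAMA5: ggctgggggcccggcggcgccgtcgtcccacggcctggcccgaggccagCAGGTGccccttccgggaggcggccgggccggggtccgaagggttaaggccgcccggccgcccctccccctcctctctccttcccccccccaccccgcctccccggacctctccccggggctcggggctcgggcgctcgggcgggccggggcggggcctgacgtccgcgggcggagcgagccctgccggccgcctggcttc
LAMB1: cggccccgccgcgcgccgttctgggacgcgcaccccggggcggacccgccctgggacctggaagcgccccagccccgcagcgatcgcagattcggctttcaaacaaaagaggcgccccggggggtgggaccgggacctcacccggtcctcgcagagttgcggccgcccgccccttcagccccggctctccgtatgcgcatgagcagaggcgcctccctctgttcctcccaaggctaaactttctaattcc
The *LAMA3* window held 2 SMAD boxes, 2 AP-1 matches and 1 E-box, of which the E-box shares bases with an AP-1 match. That of *LAMB3*, printed after the matches were seen, held 1 AP-1 match, while the window of the first listed start held 1 E-box and that of the second no match. The window of *LAMA5* held 1 E-box, and that of *LAMB1* none of the 3 motifs. Among all 35116 windows of this length in the table, 38% held a SMAD box, 6.57% an AP-1 match and 17.5% the E-box. A match describes letters only, and whether a factor binds there was not measured in these libraries.

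The positions of the genes are those of GRCh38. *LAMA3* lies at chr18:23689453-23956222 on the plus strand, *LAMB3* at chr1:209614870-209652425 on the minus strand, *LAMA5* at chr20:62307955-62367312 (minus), *LAMB1* at chr7:107923799-108003213 (minus) and *LAMC1* at chr1:183023420-183145592 (plus). *DST* lies at chr6:56457987-56954830 (minus), *PLEC* at chr8:143915153-143976734 (minus) and *CD151* at chr11:832887-839831 (plus). Values were counted over all exons of a gene without regard to strand. Of the counted exon bases, 2.53% in *LAMA5*, 2.60% in *LAMB1* and 6.60% in *CD151* overlap a gene on the other strand, and reads there cannot be assigned with certainty. The counts also merge isoforms, which matters most for *DST*, whose 48142 exonic bases hold neuronal, muscle and epithelial forms.

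**Figure D1:**
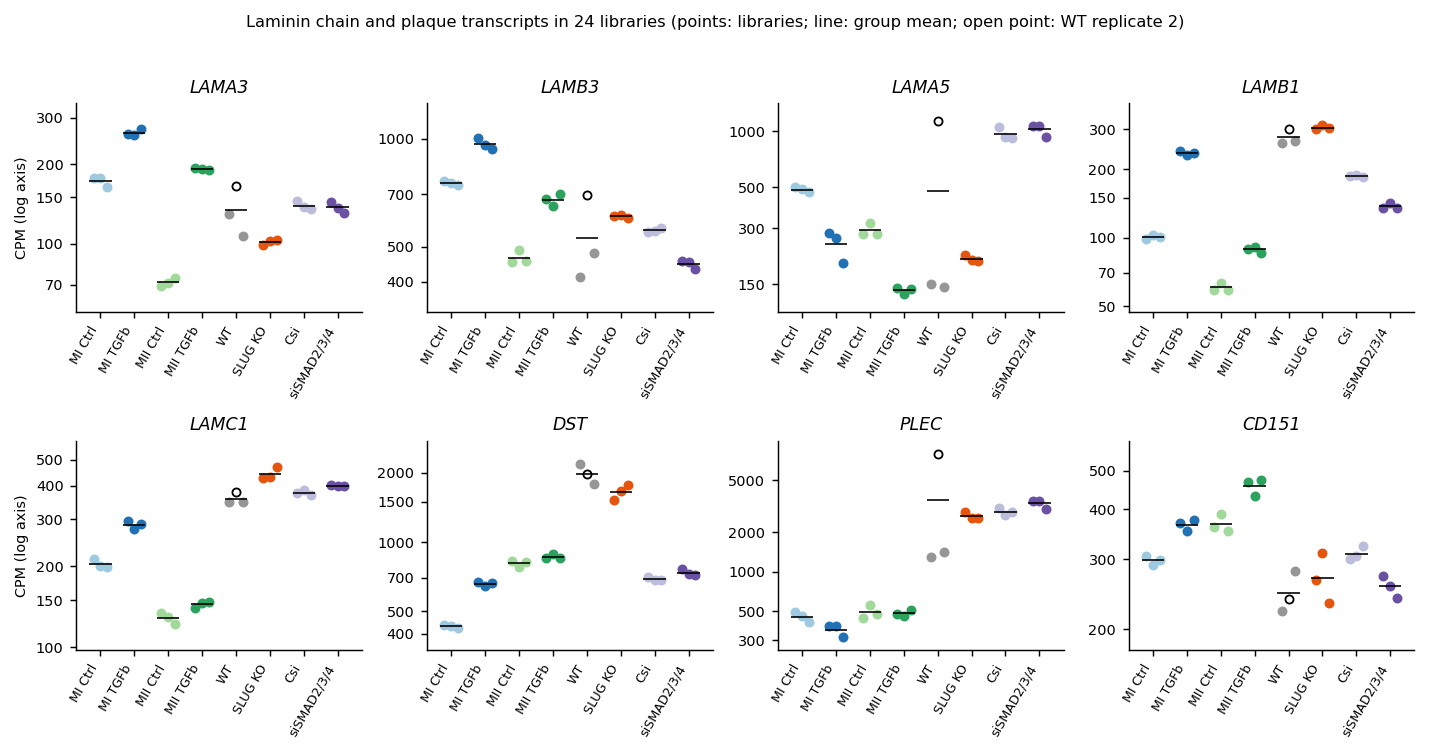
CPM of each transcript (log axis) in the 24 libraries by group. Points are libraries, lines are group means, and the open point is WT replicate 2, which stood at 7919 CPM for *PLEC* and 1128 CPM for *LAMA5* while the other WT libraries stood at 1292 and 1405 CPM and at 150.2 and 145 CPM.

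In MI-spheres, TGFβ raised 6 of the 8 transcripts and lowered *LAMA5* and *PLEC*. All 8 had an adjusted p under 0.05 in the quasi-likelihood test of edgeR, adjusted over all genes by the Benjamini-Hochberg method, where 56.0% of the 16863 genes tested also passed (28.7% higher and 27.4% lower). Only *LAMB1* and *LAMA5* changed by more than 1 on the log2 scale, a size reached by 13.6% of genes. In MII-spheres 6 of the 8 passed (57.6% of all genes, 29.9% higher and 27.6% lower), 5 of them higher and *LAMA5* lower, with *DST* and *PLEC* not passing. *LAMA3* and *LAMA5* changed by more than 1 there, as did 10.6% of genes. The log2 differences of the 2 lines were compared in a fit of all 12 sphere libraries, in which 6 of the 8 transcripts (22.4% of all genes) responded differently. In 3 of them the value was higher in MII-spheres (12.6% of genes) and in 3 lower (9.75%), and none of the differences exceeded 1 (5.84% of genes).

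*LAMA3*, the α chain of the hemidesmosomal laminin, stood at 177, 178 and 164 CPM in MI Ctrl and at 260.3, 258 and 272 CPM in MI TGFb. In MII Ctrl it stood at 69.0, 70.9 and 74.4 CPM, and in MII TGFb at 194, 192 and 190.2 CPM. The 4 groups of spheres did not overlap, and MII Ctrl was the lowest of all 8 groups. The log2 fold-change with TGFβ was 0.52 ± 0.05 (SE) in MI-spheres (edgeR adjusted p = 2.45e-08) and 1.39 ± 0.04 in MII-spheres (edgeR adjusted p = 1.49e-32), a 1.44-fold and a 2.62-fold rise. The rise was larger in MII-spheres by 0.88 ± 0.07 on the log2 scale (edgeR adjusted p = 1.71e-13). Without stimulation MII-spheres had 2.41-fold less *LAMA3* than MI-spheres (log2 fold-change -1.27 ± 0.04, edgeR adjusted p = 3.61e-32), and with TGFβ 1.30-fold less (-0.38 ± 0.05, edgeR adjusted p = 1.76e-07).

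*LAMB3*, the β chain of the same laminin, also rose with TGFβ in both lines, but its unstimulated MI libraries lay above the stimulated MII libraries, the reverse of *LAMA3*. Its levels were 762, 755 and 744 CPM in MI Ctrl and 1005, 959 and 935 CPM in MI TGFb. MII Ctrl gave 455, 489.7 and 456 CPM and MII TGFb 680.2, 649 and 703 CPM. Stimulated libraries lay above unstimulated ones in both lines without overlap. The log2 fold-change was 0.28 ± 0.05 in MI-spheres (edgeR adjusted p = 0.000111) and 0.50 ± 0.04 in MII-spheres (edgeR adjusted p = 1.44e-17). Their difference of 0.23 ± 0.06 passed (edgeR adjusted p = 0.00521), but without MII TGFb replicate 3 it was 0.17 and did not pass (edgeR adjusted p = 0.0965). *LAMB3* was lower in MII Ctrl than in MI Ctrl, as *LAMA3* was, with a log2 fold-change of -0.68 ± 0.03 (edgeR adjusted p = 3.08e-24).

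*LAMA5*, the α chain of the broadly found laminins, moved the other way. It stood at 499, 485 and 470.2 CPM in MI Ctrl and at 282, 267 and 196 CPM in MI TGFb. MII Ctrl gave 278, 320.0 and 279.6 CPM and MII TGFb 143, 133 and 142 CPM. The stimulated libraries lay below the unstimulated ones in each line, and MI TGFb replicate 3 was the lowest of its group. TGFβ lowered *LAMA5* 2.07-fold in MI-spheres (log2 fold-change -1.05 ± 0.09, edgeR adjusted p = 4.54e-09) and 2.16-fold in MII-spheres (-1.11 ± 0.04, edgeR adjusted p = 2.81e-28). The responses differed by -0.05 ± 0.11, which did not pass (edgeR adjusted p = 0.792). Without MI TGFb replicate 3 the difference was -0.24 and passed (edgeR adjusted p = 0.00166), so the comparison of the lines rests on that library. *LAMA5* was 1.64-fold lower in MII Ctrl than in MI Ctrl (-0.71 ± 0.04, edgeR adjusted p = 6.68e-23).

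*LAMB1*, a β chain of the broadly found laminins, had the largest rise of the 8 transcripts in MI-spheres. It went from 98.9, 102.7 and 100.8 CPM to 241, 231 and 235 CPM with TGFβ. In MII-spheres it went from 58.9, 63.3 and 59.1 CPM to 89.6, 91.3 and 85.9 CPM, so the stimulated MII libraries still lay below the unstimulated MI libraries. The log2 fold-changes were 1.14 ± 0.05 (edgeR adjusted p = 7.15e-14) and 0.52 ± 0.05 (edgeR adjusted p = 1.91e-12). Their difference was -0.62 ± 0.07 (edgeR adjusted p = 4.72e-09), the reverse of the direction for *LAMA3*. Stimulated MII-spheres had 2.52-fold less *LAMB1* than stimulated MI-spheres (-1.33 ± 0.05, edgeR adjusted p = 2.36e-16).

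*LAMC1*, the γ chain shared by most laminins, changed less. Levels were 212, 201 and 198 CPM in MI Ctrl, 295, 277 and 287 CPM in MI TGFb, 134, 129.8 and 122 CPM in MII Ctrl and 140.0, 146 and 148 CPM in MII TGFb. The log2 fold-change was 0.41 ± 0.05 in MI-spheres (edgeR adjusted p = 7.94e-07) and 0.13 ± 0.04 in MII-spheres (edgeR adjusted p = 0.00807). The small rise in MII-spheres did not pass when genes needed 10 counts in every library (0.09, edgeR adjusted p = 0.0530) or without MII Ctrl replicate 3 (0.10, edgeR adjusted p = 0.0816). The responses differed by -0.27 ± 0.07 (edgeR adjusted p = 0.00290), and *LAMC1* was lower in MII- than in MI-spheres by 0.65 ± 0.04 on the log2 scale without TGFβ and by 0.91 ± 0.05 with it (edgeR adjusted p = 7.56e-21 and 1.37e-13).

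*DST*, which encodes the plaque protein dystonin, rose in MI-spheres and was higher in MII-spheres without stimulation, as *CD151* also was. It stood at 436, 434 and 426 CPM in MI Ctrl and at 672, 645 and 665 CPM in MI TGFb. MII Ctrl gave 833, 779 and 818 CPM and MII TGFb 851, 885 and 852 CPM. The MII groups were close to each other and above both MI groups. *DST* rose by 0.53 ± 0.05 on the log2 scale in MI-spheres (edgeR adjusted p = 8.86e-09), while in MII-spheres the difference was 0.06 ± 0.03 and did not pass (edgeR adjusted p = 0.154). A correction for gene length made the MII value 0.30 (edgeR adjusted p = 1.15e-11), and scaling by library totals alone turned it to -0.07, so no direction is given for it. The responses differed by -0.46 ± 0.06 (edgeR adjusted p = 7.08e-08), and MII Ctrl exceeded MI Ctrl 1.89-fold (0.92 ± 0.03, edgeR adjusted p = 3.39e-30).

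*PLEC*, which encodes the keratin linker plectin, was the only plaque gene to fall in MI-spheres. It stood at 493, 459.9 and 412 CPM in MI Ctrl and at 388, 382 and 316 CPM in MI TGFb, with replicate 3 the lowest in each group. MII Ctrl gave 446, 558 and 472 CPM and MII TGFb 472, 459.9 and 512 CPM, which overlap. The log2 fold-change was -0.41 ± 0.07 in MI-spheres (edgeR adjusted p = 9.11e-05). It passed in all 15 alternative fits, but its size there ranged from -0.46 to -0.18. In MII-spheres the log2 fold-change was -0.07 ± 0.05, which did not pass (edgeR adjusted p = 0.175). The difference between the responses of the lines, 0.35 ± 0.10, passed in edgeR (adjusted p = 0.00652) and not in DESeq2 (0.35, adjusted p = 0.0994). Nor did it pass in edgeR without MI Ctrl replicate 1 (0.26, adjusted p = 0.0609) or MII TGFb replicate 3 (0.26, adjusted p = 0.0659). *PLEC* was 0.13 ± 0.05 higher in MII Ctrl than in MI Ctrl (edgeR adjusted p = 0.0174), but it passed in only 8 of 15 alternatives and groups overlapped. *CD151*, the tetraspanin, rose modestly in both lines, from 305, 289.7 and 298 to 370.2, 352 and 375 CPM in MI-spheres and from 362, 389 and 352 to 468, 432 and 474 CPM in MII-spheres. Its log2 fold-changes were 0.22 ± 0.05 and 0.28 ± 0.04 (edgeR adjusted p = 0.000803 and 1.02e-08) and differed by 0.07 ± 0.07 (edgeR adjusted p = 0.474).

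**Figure D2:**
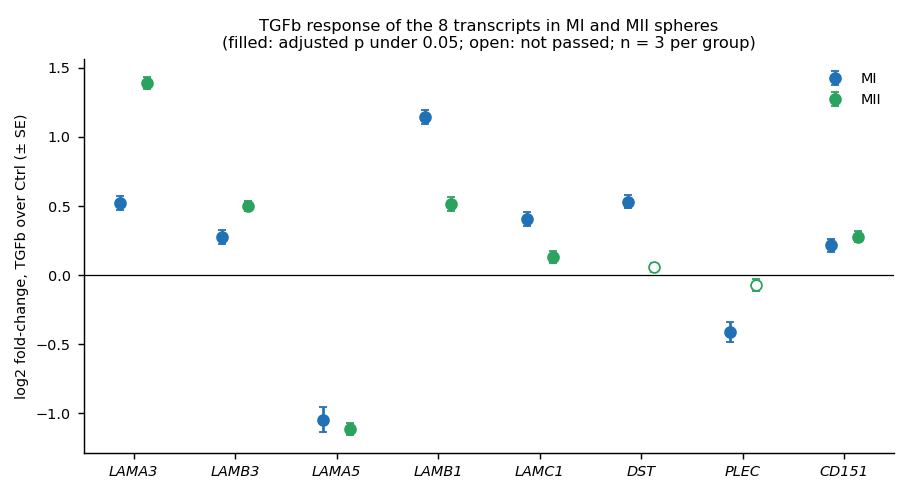
Log2 fold-change with TGFβ (± SE, 3 libraries per group) of each transcript in MI-spheres (blue) and MII-spheres (green), filled where the adjusted p was under 0.05. *LAMA3* rose more in MII-spheres (1.39 against 0.52), *LAMB1* rose more in MI-spheres (1.14 against 0.52), and *LAMA5* fell by 1.05 and 1.11.

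Between the lines, all 8 transcripts passed both without stimulation (64.2% of all genes) and with TGFβ (62.7%). The 5 laminin chains were lower in MII- than in MI-spheres in both cases, where 32.5% and 31.6% of genes were lower, and *DST*, *PLEC* and *CD151* were higher, where 31.7% and 31.1% were. Only *LAMA3* without TGFβ and only *LAMB1* with it differed by more than 1, as did 20.1% and 19.8% of genes. The median log2 fold-change over the 8 was -0.67 without and -0.41 with TGFβ, against 0.02 and 0.004 over all genes tested. The sphere comparisons share libraries, so their values stand side by side and were not correlated. How the library is scaled moves their size: the median over 15175 genes at 1 CPM or more was 0.12 in MI TGFb against MI Ctrl with TMM over all libraries and -0.10 with library totals alone. With these scalings *CD151* was 0.30 and 0.08 in that comparison, *LAMB3* 0.36 and 0.14, *LAMC1* 0.49 and 0.27, *LAMA3* 0.60 and 0.38, *DST* 0.61 and 0.39 and *PLEC* -0.33 and -0.54, while *LAMB1* (1.23 and 1.01) and *LAMA5* (-0.97 and -1.18) moved least in proportion. Of the members that passed in the sphere comparisons none changed sign with the scaling, although *LAMC1* in MII-spheres was at 0.0013 on library totals.

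Ratios of chains within a library do not depend on scaling, and per kb of exon they allow levels of different genes to be compared. In MI Ctrl, *LAMB3* had the highest level per kb of exon (162 ± 2.04 CPM per kb, SD, n = 3), followed by *CD151* (76.4 ± 1.95), *LAMA5* (33.9 ± 1.02), *PLEC* (26.8 ± 2.38), *LAMC1* (24.1 ± 0.891), *LAMA3* (11.96 ± 0.530), *DST* (8.97 ± 0.118) and *LAMB1* (5.42 ± 0.103). Exonic lengths sum all isoforms, and with the longest transcript in their place *LAMB1* was 15.0 and *DST* 17.5 CPM per kb, so the order of the lowest genes depends on the length used. The log2 ratio of *LAMA3* to *LAMA5* per kb was -1.51, -1.47 and -1.54 in the 3 MI Ctrl libraries and -0.13, -0.07 and 0.46 in MI TGFb. In MII-spheres it went from -2.03, -2.19 and -1.93 to 0.42, 0.51 and 0.40. Unstimulated spheres thus held 2.84-fold (MI) and 4.15-fold (MII) less *LAMA3* than *LAMA5* per kb of exon, whereas stimulated MII-spheres held 1.36-fold more. With the longest transcripts the mean log2 ratios were -1.38 in MI Ctrl, -1.93 in MII Ctrl and 0.57 in MII TGFb.

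The ratio of the β chains set the lines apart with TGFβ but not without it, where their libraries overlapped. *LAMB3* exceeded *LAMB1* per kb by 4.95, 4.88 and 4.88 on the log2 scale in MI Ctrl and by 4.06, 4.05 and 3.99 in MI TGFb. In MII-spheres the same ratio was 4.95, 4.95 and 4.95 without and 4.92, 4.83 and 5.03 with TGFβ, so the groups overlapped there. *LAMB1* relative to *LAMC1* rose from a mean log2 ratio of -2.15 ± 0.08 (SD, n = 3) to -1.42 ± 0.02 in MI-spheres and from -2.23 ± 0.09 to -1.84 ± 0.07 in MII-spheres, without overlap in either line. The size of these ratios depends on the length used, above all for *LAMB1*. With the longest transcripts the mean log2 ratio of *LAMB3* to *LAMB1* was 3.55 in MI Ctrl and 2.68 in MI TGFb. That of *LAMB1* to *LAMC1* was then -0.78 and -0.05. The length used shifts a ratio equally in every library, so differences between groups stay the same. The ratios are given as a description, with no test.

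**Figure D3:**
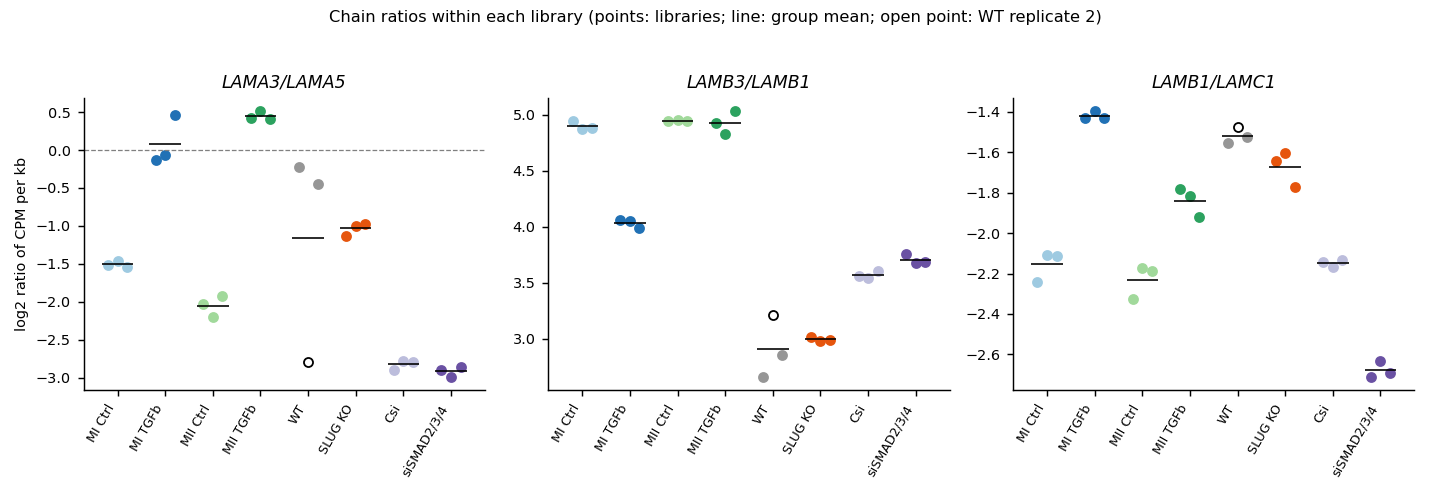
Log2 ratio of CPM per kb of exon for 3 pairs of laminin chains in each library, by group. Points are libraries, lines are group means and the open point is WT replicate 2. *LAMA3*/*LAMA5* rose with TGFβ from a mean of -1.505 to 0.08 in MI-spheres and from -2.05 to 0.45 in MII-spheres, and *LAMB3*/*LAMB1* fell from 4.90 to 4.04 in MI-spheres. With the longest transcripts in place of all exons, the latter fell from 3.55 to 2.68.

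Other genes of the pathway were counted from lists compiled with earlier results of these data known, and their counts stand against 28.7% of all genes higher and 27.4% lower in MI-spheres and 29.9% and 27.6% in MII-spheres. Of the 5 hemidesmosome partners and keratins (*ITGA6*, *ITGB4*, *COL17A1*, *KRT5* and *KRT14*), 4 rose and none fell with TGFβ in MI-spheres, and 4 rose and none fell in MII-spheres. The gene that did not pass in either line was *ITGB4*, the integrin subunit that plectin binds, at log2 fold-changes of 0.13 ± 0.07 and -0.07 ± 0.04 (edgeR adjusted p = 0.115 in both). *KRT5*, a basal keratin, rose by 2.39 ± 0.05 and 3.38 ± 0.05 (edgeR adjusted p = 5.32e-19 and 1.14e-45), and *COL17A1*, a transmembrane collagen of hemidesmosomes, by 1.24 ± 0.05 and 0.59 ± 0.06 (edgeR adjusted p = 2.60e-14 and 4.20e-13). *ITGA6* rose by 0.74 ± 0.06 and 0.49 ± 0.04 (edgeR adjusted p = 4.11e-10 and 3.85e-17). The list of 6 epithelial markers, which holds *KRT5* and *KRT14* itself, went from between 787 and 809 CPM to between 1633 and 1760.3 CPM in MI-spheres and from between 765 and 813 to between 1261 and 1288 CPM in MII-spheres. Summed mesenchymal markers went from between 56.3 and 62.0 to between 263 and 294 CPM in MI-spheres and from between 140.3 and 146 to between 163 and 177 CPM in MII-spheres. *FN1* made up most of that sum, with means going from 55.3 to 262 CPM and from 134 to 146 CPM. Mean *VIM* went from 1.71 to 7.45 and from 2.74 to 8.03 CPM. Mean *CDH2* went from 1.54 to 5.88 and from 4.20 to 10.3 CPM, and *ZEB1* from 1.22 to 1.77 and from 2.74 to 3.17 CPM. Summed luminal markers went from between 1183 and 1222 to between 1403 and 1494 CPM and from between 2229.6 and 2287 to between 2692 and 2846 CPM. Within that list mean *ESR1* fell in both lines, from 7.66 to 2.42 and from 3.18 to 2.40 CPM. Mean *GATA3* fell in MII-spheres only, from 30.2 to 23.1 CPM, and the other luminal markers rose. Mitochondrial genes took 0.687% to 0.789% of counts in MI Ctrl and 0.423% to 0.572% in MI TGFb, and 1.41% to 1.66% in MII Ctrl and 1.02% to 1.18% in MII TGFb. In bulk RNA, more cells of a type and more RNA per cell cannot be told apart, and the part of either in the values above was not tested.

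Of the 7 other laminin chains, 5 could be tested in MI-spheres and 4 in MII-spheres. *LAMB2*, a β chain of the broadly found laminins, fell by 0.39 ± 0.05 in MI-spheres and by 0.19 ± 0.03 in MII-spheres (edgeR adjusted p = 3.48e-06 and 9.70e-06). *LAMA4* did not pass in MI-spheres (0.15 ± 0.08, edgeR adjusted p = 0.142) and fell by 0.75 ± 0.06 in MII-spheres (edgeR adjusted p = 1.21e-14). *LAMA2* passed in MI-spheres (0.74 ± 0.30, edgeR adjusted p = 0.0422) at a mean below 2 CPM. *LAMB4* and *LAMC3* were below the count filter. Among the 19 basement membrane partners, 9 rose and 3 fell in MI-spheres and 7 rose and 4 fell in MII-spheres. *COL4A1*, a chain of the collagen network that laminins are linked to, rose from 8.12 to 40.0 CPM in MI-spheres (2.21 ± 0.09, edgeR adjusted p = 3.34e-14) and from 1.56 to 34.2 CPM in MII-spheres (4.35 ± 0.12, edgeR adjusted p = 1.57e-34). Of the 5 other plakins, the family of DST and PLEC, 1 rose and 3 fell in each line. The riser was *DSP*, a desmosomal plakin, by 0.88 ± 0.05 and 0.88 ± 0.04 (edgeR adjusted p = 7.30e-12 and 5.76e-28), and *PPL*, which encodes periplakin, fell by 1.05 ± 0.06 and 0.55 ± 0.04 (edgeR adjusted p = 1.07e-11 and 8.28e-19). Over all 57 listed genes, 26 rose and 11 fell among 51 tested in MI-spheres, and 24 rose and 10 fell among 49 in MII-spheres.

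The remaining lists held the other receptors, the other tetraspanins and proteases that cut laminins. Of 6 other laminin receptors, 4 rose and 1 fell in MI-spheres and 4 rose in MII-spheres, with *RPSA*, a ribosomal protein also described as a laminin receptor, at 0.68 ± 0.05 and 0.53 ± 0.03 (edgeR adjusted p = 1.37e-09 and 2.77e-19). Of 10 other tetraspanins, 3 rose and 3 fell in MI-spheres and 5 rose and 1 fell in MII-spheres, where *TSPAN1* was among the risers at 0.48 ± 0.04 (edgeR adjusted p = 2.59e-15). Of the 4 proteases tested in MI-spheres and the 3 in MII-spheres, 3 and 2 rose, and *MMP2* rose from 2.73 to 13.5 CPM and from 5.69 to 20.2 CPM (2.22 ± 0.14 and 1.75 ± 0.12, edgeR adjusted p = 2.62e-11 and 1.57e-18).

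In MDA-MB-231 cells, siRNAs against the SMADs lowered 3 of the 8 transcripts, *LAMB1*, *LAMB3* and *CD151*, and raised *PLEC*, so 4 of 8 passed against 36.0% of all genes (16.3% higher and 19.7% lower). No member changed by more than 1 on the log2 scale, as 1.90% of genes did. *LAMB1* stood at 186, 189 and 185 CPM in Csi and at 135, 142 and 135 CPM in siSMAD2/3/4, and *LAMB3* at 551, 553 and 564 CPM and 457, 453 and 435 CPM. Neither overlapped between the groups. Their log2 fold-changes were -0.45 ± 0.04 and -0.32 ± 0.04 (edgeR adjusted p = 1.72e-10 and 3.18e-08). *CD151* went from 299.7, 304 and 323 CPM to 272, 257 and 239 CPM (-0.28 ± 0.04, edgeR adjusted p = 3.81e-06).

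*LAMA3* showed no difference that passed with the SMAD siRNAs, at 145, 137 and 135 CPM in Csi and 145, 137 and 130.6 CPM in siSMAD2/3/4 (-0.02 ± 0.04, edgeR adjusted p = 0.747). *LAMA5* stood at 1059, 933 and 921 CPM against 1065, 1071 and 931 CPM (0.07 ± 0.05, edgeR adjusted p = 0.311). The groups overlapped for both α chains. *LAMC1* (0.08 ± 0.04) and *DST* (0.09 ± 0.04) missed the threshold with adjusted p of 0.0950 and 0.0726 in edgeR, although their libraries did not overlap, and DESeq2 passed both (adjusted p = 0.0407 and 0.0198). *PLEC* stood at 3060.0, 2691 and 2862 CPM in Csi and at 3477, 3494 and 3021 CPM in siSMAD2/3/4, which overlap, with a log2 fold-change of 0.21 ± 0.05 (edgeR adjusted p = 0.000769). By the headers of the count files, siSMAD2/3/4 replicates 1 and 2 were run on another flow cell than replicate 3 and all Csi libraries. With flow cell as a term, the siRNA difference rests on siSMAD2/3/4 replicate 3 alone, so the tests of that fit are not read as results. The log2 fold-changes were then 0.08 for *PLEC*, -0.46 for *LAMB1*, -0.35 for *LAMB3* and -0.36 for *CD151*. The calls of that fit, 3 of 8 members against 24.6% of all genes, carry the same limit. Without that term, 2 of the 4 hemidesmosome partners and keratins tested were higher and 1 was lower. *ITGB4*, the partner of plectin, was higher by 0.50 ± 0.04 (edgeR adjusted p = 2.75e-11), as was *KRT14* at a mean below 1 CPM. *COL17A1* was lower by 0.32 ± 0.08 (edgeR adjusted p = 0.00172), and *ITGA6* did not pass (-0.07 ± 0.04, edgeR adjusted p = 0.178). Within the libraries, the mean log2 ratio of *LAMB1* to *LAMC1* went from -2.15 ± 0.02 to -2.68 ± 0.04 (SD, n = 3) without overlap.

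No member passed between the libraries labelled SLUG KO and WT in edgeR, where 3.33% of 17428 genes did (1.45% higher and 1.89% lower, and 3.05% by more than 1 on the log2 scale). None had an unadjusted p under 0.05, and DESeq2 called 0 of 8 as well, against 1204 of all genes. The WT libraries differed widely. *PLEC* stood at 1292, 7919 and 1405 CPM in WT and at 2854, 2579.5 and 2591 CPM in SLUG KO, and *LAMA5* at 150.2, 1128 and 145 CPM and 214, 202 and 200.2 CPM. The fitted log2 fold-changes were -0.43 ± 0.67 and -1.24 ± 0.77 (edgeR adjusted p = 0.751 and 0.424). Without WT replicate 2, both turned positive and passed, *PLEC* at 0.98 ± 0.10 and *LAMA5* at 0.47 ± 0.09 (edgeR adjusted p = 3.04e-06 and 0.000625). So did *LAMB3* (0.43 ± 0.09) and *LAMC1* (0.33 ± 0.09), with adjusted p of 0.00212 and 0.00947 in edgeR, which makes 4 of 8 members against 31.2% of all genes. The directions for *PLEC* and *LAMA5* therefore rest on WT replicate 2. They concern libraries whose *SNAI2* count, which does not read the edit, was above that of WT.

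WT replicate 2 held 5.87 times as much *PLEC* and 7.66 times as much *LAMA5* as the mean of WT replicates 1 and 3. *LAMB3* was at 1.56 times and *LAMA3* at 1.39 times that mean, and *LAMB1*, *LAMC1*, *DST* and *CD151* were between 0.951 and 1.14 times it. The exons of *PLEC* and *LAMA5* are 67.2% and 65.7% GC, the highest of the 8, and those of *DST* the lowest at 39.7%. *CD151*, at 62.7% GC, did not follow. Each library was set against the mean of the other libraries of its group, so the WT values are not independent of each other. Over 1134 genes with more than 60% exonic GC, the median log2 difference was 1.12 in replicate 2, -0.73 in replicate 1 and -0.41 in replicate 3. Over 4301 genes with less than 45% GC it was -0.79, 0.34 and 0.47. In the other 7 groups the medians of the GC-rich genes lay between -0.12 and 0.17. With a GC-content correction, *PLEC* was 0.09 ± 0.31 and *LAMA5* -0.65 ± 0.43 between SLUG KO and WT (edgeR adjusted p = 0.860 and 0.339). A cause for the WT replicate was not tested.

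**Figure D4:**
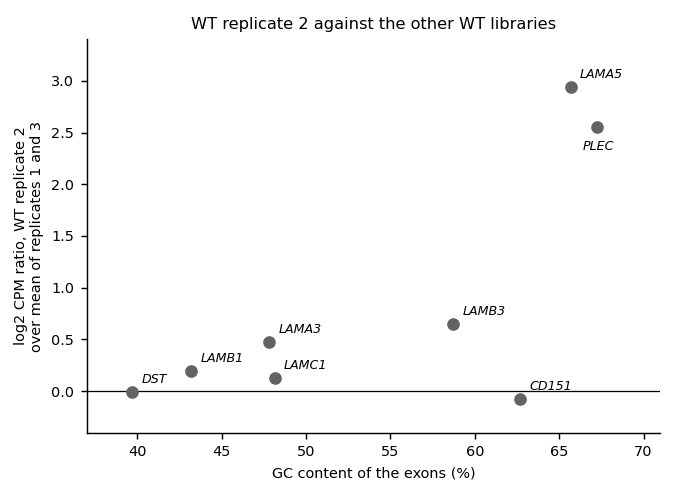
Log2 ratio of CPM in WT replicate 2 to the mean of WT replicates 1 and 3 for each transcript, against the GC content of its exons in percent. *LAMA5* (2.94) and *PLEC* (2.55) stand far above the other 6, which lie between -0.07 and 0.64.

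The other members gave narrower groups in MDA-MB-231. *LAMA3* stood at 130.1, 165 and 107.3 CPM in WT and at 99.3, 102.1 and 103.7 CPM in SLUG KO, without overlap (-0.43 ± 0.20, edgeR adjusted p = 0.303, and -0.24 ± 0.10, adjusted p = 0.0779, without WT replicate 2). *LAMB1* stood at 259.8, 301 and 267 CPM against 301, 311 and 302 CPM, and *LAMC1* at 346, 379 and 349 CPM against 428, 429.9 and 468 CPM. Both were a little higher in the libraries labelled SLUG KO, at 0.12 ± 0.16 and 0.28 ± 0.16, and neither passed with all libraries (edgeR adjusted p = 0.707 and 0.377). *DST* stood at 2197, 1980.1 and 1782 CPM against 1519, 1671 and 1776 CPM (-0.29 ± 0.18, edgeR adjusted p = 0.420), and *CD151* at 222, 238.1 and 279 CPM against 266, 309.8 and 232 CPM (0.11 ± 0.18, edgeR adjusted p = 0.778). Of the 57 pathway genes, 4 of 48 tested passed, among them the plakin *DSP*, which was lower in the libraries labelled SLUG KO by 1.61 ± 0.21 (edgeR adjusted p = 0.0102).

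**Figure D5:**
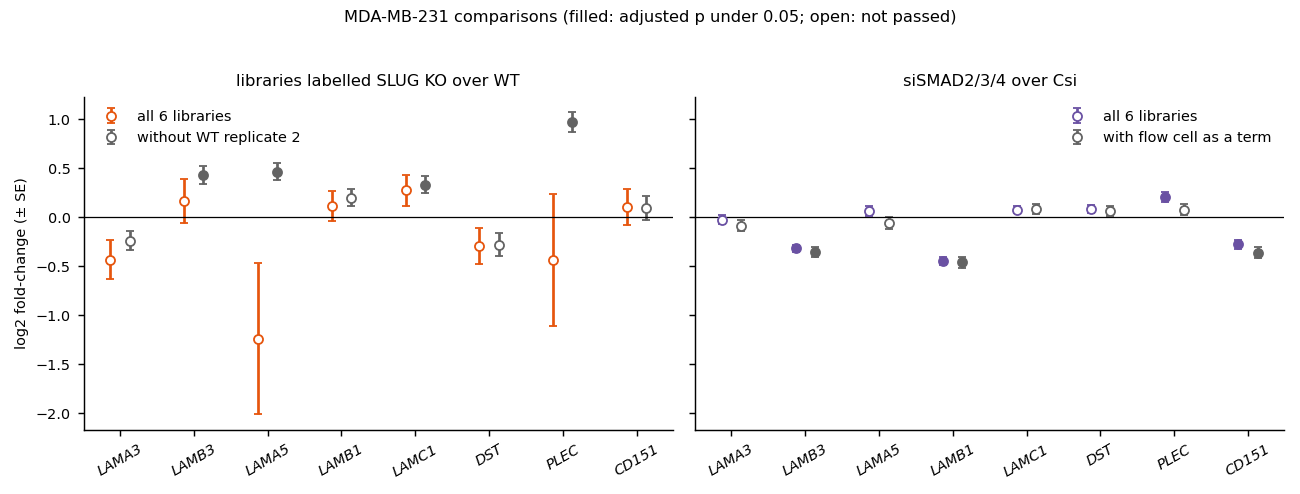
Log2 fold-change (± SE) of each transcript in the MDA-MB-231 comparisons, filled where the adjusted p was under 0.05. Left, libraries labelled SLUG KO against WT with all 6 libraries and without WT replicate 2, where *PLEC* moved from -0.43 to 0.98 and *LAMA5* from -1.24 to 0.47. Right, siSMAD2/3/4 against Csi without and with flow cell as a term, where *LAMB1* was -0.45 and -0.46. With that term the values rest on siSMAD2/3/4 replicate 3 alone, so its filled points are not read as results.

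Against MI Ctrl, 4 of the 8 transcripts were higher in WT MDA-MB-231 and none lower (54.0% of all genes passed, 28.1% higher and 25.9% lower, and 44.5% differed by more than 1), and without WT replicate 2 all 8 passed (74.9% of all genes), 4 in each direction. *DST* was 4.58-fold higher (2.20 ± 0.18, edgeR adjusted p = 5.53e-05) and *LAMB1* 2.73-fold higher (1.45 ± 0.15, edgeR adjusted p = 0.000215), and *LAMC1* was higher by 0.81 ± 0.15 (edgeR adjusted p = 0.00331). These 3 kept their size without WT replicate 2, at 2.17, 1.35 and 0.74. *PLEC* was higher by 2.95 ± 0.73 with all libraries (edgeR adjusted p = 0.0115) and by 1.53 ± 0.08 without WT replicate 2 (adjusted p = 2.42e-10). *LAMA5* changed most between the fits, from -0.04 ± 0.77 (edgeR adjusted p = 0.971) to -1.75 ± 0.07 (adjusted p = 1.36e-11). *LAMA3* (-0.58 ± 0.09), *LAMB3* (-0.79 ± 0.08) and *CD151* (-0.28 ± 0.09) passed as lower without that replicate (edgeR adjusted p = 2.98e-05, 3.32e-07 and 0.00769), and *LAMA3* and *LAMB3* also did with the GC-content correction (-0.46 and -0.70). Of the 5 hemidesmosome partners and keratins, 3 were lower and 1 higher with all libraries. *COL17A1* was 3.05 ± 0.21 lower (edgeR adjusted p = 2.86e-05), as were *KRT5* and *KRT14*. *ITGA6* was 1.03 ± 0.25 higher (edgeR adjusted p = 0.0105), and *ITGB4* did not pass (-0.40 ± 0.48, edgeR adjusted p = 0.503).

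Over the 8 groups, *PLEC* had the widest range of mean levels, 9.77-fold between WT (3539 CPM) and MI TGFb (362 CPM), followed by *LAMA5* (7.35-fold), *LAMB1* (5.04-fold), *DST* (4.60-fold), *LAMA3* (3.69-fold), *LAMC1* (3.43-fold), *LAMB3* (2.16-fold) and *CD151* (1.86-fold). Without replicate 2 the WT mean of *PLEC* was 1349 CPM, below those of the other MDA-MB-231 groups, and that of *LAMA5* was 147 CPM. The order of groups below uses all 3 WT libraries. Order by group differed between the chains. *LAMA3* and *LAMB3* were highest in MI TGFb, *LAMA5* in siSMAD2/3/4 and Csi, whose libraries overlap, *LAMB1* and *LAMC1* in the libraries labelled SLUG KO, *DST* in WT and *CD151* in MII TGFb. No neighbouring groups overlapped in the order of *LAMB1* or in that of *DST*, but SLUG KO and WT nearly touched. For *LAMB1* the lowest SLUG KO library was at 301.4 CPM and the highest WT library at 300.9 CPM. For *DST* the lowest WT library was at 1782 CPM and the highest SLUG KO library at 1776 CPM. Neighbours overlapped for *LAMA3* between Csi, siSMAD2/3/4 and WT, for *LAMC1* between Csi and WT, for *LAMB3* from Csi down to siSMAD2/3/4, for *PLEC* from WT down to SLUG KO and from MII Ctrl down to MI Ctrl, for *LAMA5* from siSMAD2/3/4 to Csi and from MI Ctrl down to SLUG KO, and for *CD151* between MII Ctrl and MI TGFb and from Csi down to WT. Comparisons of the siRNA groups with the others cross sequencing batches. *LAMA5* was at a mean of 971 CPM in Csi against 145 and 150.2 CPM in WT replicates 3 and 1 of the same cell line. WT replicate 2 stood at 1128 CPM, above the highest Csi library at 1059 CPM.

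Across the 24 libraries, log2 CPM of *LAMB1* and *LAMC1* correlated with a Pearson's r of 0.865 and that of *LAMA3* and *LAMB3* with 0.772, whereas *LAMA3* and *LAMA5* gave -0.01. *CD151* ran against *LAMC1* (-0.75) and *PLEC* (-0.70). These values describe libraries that share cell lines, batches and replicates of a group, and carry no test. Among the 12870 genes searched, the most alike were *GOT2* and *GUK1* for *LAMA3* (0.916 and 0.895), *PPP4C* and *NDUFB7* for *LAMB3* (0.946 and 0.941), *TMEM94* and *HCN2* for *LAMA5* (0.976 and 0.961) and *ARHGAP10* and *TANGO6* for *LAMB1* (0.978 and 0.970). For *LAMC1* they were *MMS19* and *POFUT1* (0.989 and 0.988), for *DST* they included *EXOSC2* (0.929), for *PLEC* *ITPR3* and *SPINDOC* (0.994 and 0.984) and for *CD151* *SPR* and *ENAH* (0.928 and 0.918).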

How the data were processed

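RNA-seq counts of 24 libraries in 8 groups of 3 were used, and 16 ATAC-seq samples of the 40 in the series were not analysed here. The deposited values are raw counts per gene, which the authors made by trimming with Trimmomatic, aligning to GRCh38 with STAR and counting with featureCounts (Subread 2.0.0) on GENCODE 38 at a minimum mapping quality of 30, without regard to strand. Groups follow the labels.

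Each comparison was fitted over all genes passing edgeR's expression filter, with TMM scaling and the quasi-likelihood test (edgeR 4.0.16, limma 3.58.1, R 4.3.3), on the libraries of its own groups. The difference between the lines' responses was an interaction term in all 12 sphere libraries. Benjamini-Hochberg adjusted p under 0.05 passed. All 8 genes passed the filter in every fit. Levels are CPM, divided by kb of exon where genes are compared. Of 60708 genes, 60463 had a symbol.

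The 8 genes, the pathway lists and the marker lists (basal and general epithelial, luminal, mesenchymal, stromal, endothelial and leukocyte) were chosen with earlier results of these data known. Named genes were all 8 members, the other laminin chains and hemidesmosome partners, the 2 genes of smallest adjusted p in each remaining list and comparison, the targeted genes, and the 2 protein-coding genes most alike each member (mean of at least 1 CPM, Pearson's r of log2 CPM). Some genes that this rule names are not reported here.

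The alternatives were DESeq2 1.42.0, its size factors, library totals, other count filters, corrections for gene length and GC content, a replicate block, a flow cell term and leaving out each library. The fits were tested on simulated data. Precision is limited by 3 libraries a group and totals of 14124688 to 38406952 counts.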

Additional observations from a re-analysis of the deposited data

Results flagged for a closer look

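The responses of MI- and MII-spheres to TGFβ differed for 6 of the 8 transcripts by the interaction term in edgeR, where 22.4% of all genes passed. The response in MII-spheres minus that in MI-spheres was 0.88 for *LAMA3*, 0.23 for *LAMB3* and 0.35 for *PLEC* on the log2 scale, and -0.62 for *LAMB1*, -0.27 for *LAMC1* and -0.46 for *DST*. The values for *LAMA3*, *LAMB1*, *LAMC1* and *DST* passed in all 20 alternatives, that for *LAMB3* in 19 and that for *PLEC* in 17.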

How the results depend on the processing

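Across the alternatives, all 8 transcripts passed in MI TGFb against MI Ctrl (7696 to 10124 of all genes) and in MII TGFb against MI TGFb (8815 to 10904). Values that changed direction were small or rested on WT replicate 2. In MII TGFb against MII Ctrl, *PLEC* was 0.031 with the gene-length correction, 0.052 with the GC correction, 0.037 with block and length, and from -0.13 to 0.033 when each library was left out (highest without MII Ctrl replicate 2), and *DST* was -0.0010 with the GC correction. The interaction of *LAMA5* was 0.0061 without MI TGFb replicate 1 and ranged from -0.24 without MI TGFb replicate 3 to 0.018 without MII Ctrl replicate 2. Between SLUG KO and WT, *PLEC* was 0.093 with the GC correction, 0.16 with the replicate block and 0.27 with block and length. Leaving out each library gave -0.80 to 0.98 for *PLEC* and -1.64 to 0.47 for *LAMA5*, both highest without WT replicate 2. In siSMAD2/3/4 against Csi, *LAMA5* was -0.054 and *LAMA3* -0.083 with flow cell as a term, a fit that rests on siSMAD2/3/4 replicate 3 alone. When each library was left out, *LAMA3* ranged from -0.052 to 0.018, with 0.013 without siSMAD2/3/4 replicate 3. In WT against MI Ctrl, *LAMA5* ranged from -1.75 without WT replicate 2 to 0.37 without WT replicate 1 or 3. The cause was not tested.

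Leaving out each library in turn gave 5 to 7 members called in MII TGFb against MII Ctrl, 7 to 8 in MII Ctrl against MI Ctrl and 4 to 7 for the interaction. It gave 0 to 4 between SLUG KO and WT, 4 to 6 with the SMAD siRNAs and 4 to 8 in WT against MI Ctrl. The highest SLUG KO and WT counts were those without WT replicate 2. Over all genes these fits called, in the same order, 8709 to 9151, 11045 to 11363, 3640 to 4750, 133 to 5592, 5355 to 6423 and 8083 to 14660. Genes passing between SLUG KO and WT numbered 581, against 1204 in DESeq2, 973 with no filter, 260 with at least 10 counts in every library, 2038 with the GC correction, 255 with the replicate block, 186 with block and length, and 133 to 5592 when each library was left out. Those in WT against MI Ctrl numbered 6527 with at least 10 counts. Pathway genes passing between SLUG KO and WT numbered 9 with the GC correction, 2 with block and length and 1 to 28 without each library.

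Replicate numbers did not pair the libraries, with correlations of same-numbered deviations from -0.12 to 0.05. With the replicate block, 8, 6, 8, 8, 6, 0, 4 and 4 members passed in the 8 comparisons, as many as without it. Over all genes, 9833, 9132, 11297, 9875, 4414, 255, 6308 and 9279 passed with the block.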
